A study of Homo sapiens with 4 samples.

Results

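To describe how the lysosomal membrane responds when PRCC-TFE3 is switched on, 39 genes were followed that encode lysosomal membrane proteins and solute transporters, together with a few proteins that deliver cargo to lysosomes. They were chosen by name, with earlier results of these data known, from 34080 genes to which transcripts could be assigned. All 39 were found, 37 had enough reads to be tested, and LAMP3 and LAPTM5 did not. Polyadenylated RNA was sequenced from HK-2 cells, which derive from human proximal tubule and are immortalised, that carry an inducible, HA-tagged PRCC-TFE3, the fusion protein of a renal cell carcinoma subtype. The Doxy(+) group received 0.2 microg/ml doxycycline for 24 h and the Doxy(-) group received none, with 2 libraries each, numbered 1 and 2. Both groups carry the transgene and their own TFE3 and PRCC genes, the labels do not say whether the line is a single clone or what a number marks, and cells lacking the transgene were not analysed here. The action of doxycycline and that of PRCC-TFE3 therefore cannot be told apart.

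The lysosomal membrane is lined by a dense coat of glycoproteins that shields it from the hydrolases of the organelle. It is studded with transporters that return amino acids, sugars, lipids, nucleosides and vitamins from digested material to the cytosol. Loss of single transporters leads to storage diseases such as cystinosis, Salla disease and Niemann-Pick disease type C. TFE3 belongs to the MiT/TFE family of transcription factors, which are known as regulators of lysosomal genes and bind E-box sequences, and the proximal tubule, which takes up filtered protein, is rich in lysosomes.

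The libraries held between 14042545 and 16618401 estimated reads, of which between 12654233 and 15012743 fell on named genes. TFE3 had 66.9 and 69.1 CPM (counts scaled by TMM to a library total of 1000000) in Doxy(-) and 367 and 322 CPM in Doxy(+), a 5.07-fold difference (log2 fold change 2.34, edgeR SE 0.0721, adjusted p 4.78e-05) and the same direction as the labels. PRCC, the other gene of the fusion, had 50.2 and 47.2 CPM in Doxy(-) and 47.7 and 60.1 CPM in Doxy(+). Its groups overlapped, and it did not pass (log2 fold change 0.15, edgeR adjusted p 0.413). Of 7 markers of renal epithelium in culture, PAX8, KRT8, KRT18, KRT19, CDH6 and EPCAM were present in every library. PAX2 was at 0 CPM except for 0.0777 CPM in Doxy(+) 1. Of 10 markers of the mature proximal tubule only GGT1 and SLC5A2 reached 1 CPM throughout, SLC22A6 was at 0 and LRP2, CUBN and AQP1 lay below 1 CPM. None of the 7 leukocyte markers and none of the 3 endothelial markers reached 1 CPM in every library. The summed level of the 10 proximal tubule markers was 75.1 to 75.5 CPM in Doxy(-) and 84.1 to 91.8 CPM in Doxy(+). Most of this sum was GGT1, with 68.7 and 69.4 CPM in Doxy(-) and 78.1 and 86.0 CPM in Doxy(+). GGT1 was the only marker of this list that was higher by the test. SLC34A1 went the other way, from 1.32 and 1.09 CPM to 0.233 and 0.521 CPM, without passing. The summed level of the 7 culture markers was 2091 to 2096 CPM in Doxy(-) and 1770 to 1791 CPM in Doxy(+), with 4 lower by the test. The part of these differences in the results was not tested.

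The sequences around E-box-type motifs in member promoters are shown first, because factors of the TFE3 family bind DNA of this kind. RefSeq promoter windows (GRCh38.p14, 250 bases before the transcription start and 50 after it) were matched for 33 of the 39 members, all but CLN8, LAMP2, LAMP3, LAPTM4B, PIP4P1 and PIP4P2. Each window was searched on both strands for CACGTG (the E-box), for TCACGTGA and GTCACGTG (longer forms that contain it) and for TCATGTGA (an M-box form without the E-box, which reads TCACATGA on the other strand). Capitals mark CACGTG and TCATGTGA in either orientation, and each stretch runs 5′ to 3′ on the strand of its gene. The stretches lie at GLMP chr1:156295659-156295716 (minus strand), CLN3 chr16:28492050-28492129 (minus strand), SLC38A7 chr16:58684746-58684797 (minus strand), SPNS1 chr16:28974528-28974802 (plus strand), LAMP1 chr13:113297022-113297263 (plus strand), MFSD1 chr3:158802014-158802078 (plus strand) and CD63 chr12:55729080-55729214 (minus strand).
GLMP: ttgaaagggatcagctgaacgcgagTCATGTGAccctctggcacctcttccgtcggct
CLN3: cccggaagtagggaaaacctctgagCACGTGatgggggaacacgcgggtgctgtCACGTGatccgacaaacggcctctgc
SLC38A7: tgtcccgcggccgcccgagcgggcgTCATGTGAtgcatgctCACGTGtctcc
SPNS1: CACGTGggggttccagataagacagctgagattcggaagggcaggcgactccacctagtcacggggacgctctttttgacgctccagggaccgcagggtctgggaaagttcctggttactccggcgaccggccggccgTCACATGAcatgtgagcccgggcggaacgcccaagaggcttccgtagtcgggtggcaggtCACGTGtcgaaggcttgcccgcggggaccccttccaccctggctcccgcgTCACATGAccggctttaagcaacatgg
LAMP1: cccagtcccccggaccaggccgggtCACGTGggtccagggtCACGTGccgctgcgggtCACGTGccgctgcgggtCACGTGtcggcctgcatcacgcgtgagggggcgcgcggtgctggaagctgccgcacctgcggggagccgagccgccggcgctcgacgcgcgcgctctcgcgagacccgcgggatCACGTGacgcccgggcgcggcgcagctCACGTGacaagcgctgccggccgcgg
MFSD1: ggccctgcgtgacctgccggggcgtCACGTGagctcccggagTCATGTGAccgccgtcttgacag
CD63: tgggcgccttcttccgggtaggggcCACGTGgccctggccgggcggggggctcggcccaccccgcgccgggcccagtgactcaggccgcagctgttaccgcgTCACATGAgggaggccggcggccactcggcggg

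Of the 33 members with a window, 7 (21.2%) held CACGTG or TCATGTGA, against 8.34% of all 27305 promoters, 10.9% of the promoters of tested genes and 24.2% of those of genes that rose. Counted from 0 at the start, the single TCATGTGA of GLMP began at position -12. LAMP1 had 6 CACGTG, with a row of 4 at -192, -176, -159 and -142 and the others at -28 and -1, and CLN3 held 2 CACGTG, at -30 and -1. SPNS1 held 2 of each motif, and CD63, MFSD1 and SLC38A7 held 1 of each. TCACGTGA was found in CLN3, LAMP1 and MFSD1, which is 9.09% of the member windows against 1.04% of all promoters and 6.91% of those of genes that rose. GTCACGTG was found in 4 members (12.1%), against 2.53% of all promoters and 14% of those of genes that rose. TCATGTGA was found in 5 members (15.2%), against 1.01% of all promoters and 4.92% of those of genes that rose. These member shares include members that did not rise. Among the 17 members with a window that rose, 17.6% held TCACGTGA, 23.5% GTCACGTG and 29.4% TCATGTGA. Of the promoters of tested genes, 1.98% held TCACGTGA, 4.5% GTCACGTG and 0.853% TCATGTGA.

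**Figure D1:**
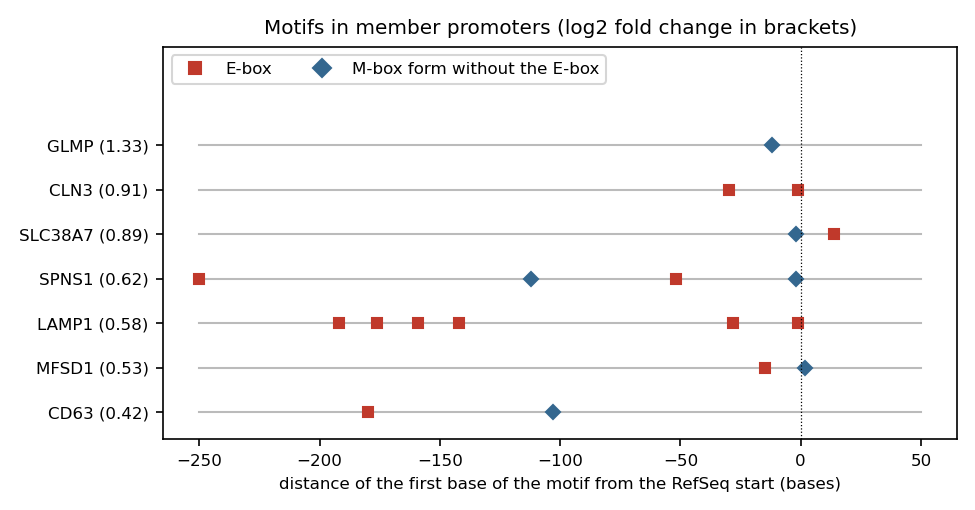
Positions of E-box (CACGTG, squares) and M-box (TCATGTGA, diamonds) matches in the 7 member promoters that hold one, as distance in bases of the first base of the motif from the RefSeq transcription start, which is 0 and marked by the dotted line. The number in brackets is the log2 fold change, from 0.42 for CD63 to 1.33 for GLMP, and the grey lines are the 300-base windows.

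By the test below, 17 of the members with a window rose, and 7 of these (41.2%) held a motif, as did 0 of the 15 members with a window that did not pass. Either motif was present in 9.49% of the promoters of all tested genes that did not pass. The log2 fold change of the 7 with a motif ran from 0.42 to 1.33, and that of the 10 that rose without one ran from 0.17 (SCARB2) to 1.16 (CTNS), so the ranges overlapped. CTNS, SLC66A1 and SLC17A5 had some of the smallest p-values and neither motif in this window. A match describes the letters in the window only.

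Next, the members were compared between the groups. Of the 37 tested, 21 rose in Doxy(+) at an edgeR adjusted p under 0.05, which is 56.8% of those tested, where 9.76% of all 13569 genes tested rose. None fell, where 9.53% of all genes did, and at an unadjusted p under 0.05 there were 23 higher and 0 lower by edgeR, and DESeq2 likewise called 0 lower. Past both limits, an adjusted p under 0.05 and a log2 fold change over 1 in size, were GLMP and CTNS, against 1.50% of all genes that were higher, and no member was lower past both limits, against 0.479% of all genes. The median log2 fold change was 0.35 over the 37 tested members and 0.00 over all genes, and among the 21 that rose it was 0.59, with 14 above 0.5. SLC46A3 entered the test only through its Doxy(+) libraries, so its difference is in part fixed by the filter. Both Doxy(+) libraries lay above both Doxy(-) libraries in 30 of the 37 (81.1%, against 31.1% of all genes), both lay below in SLC36A4 and ATP13A2 (against 30.0% of all genes), and 5 members overlapped. In RNA from whole cultures, a change in every cell and a change in the share of cells that respond cannot be told apart.

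**Figure D2:**
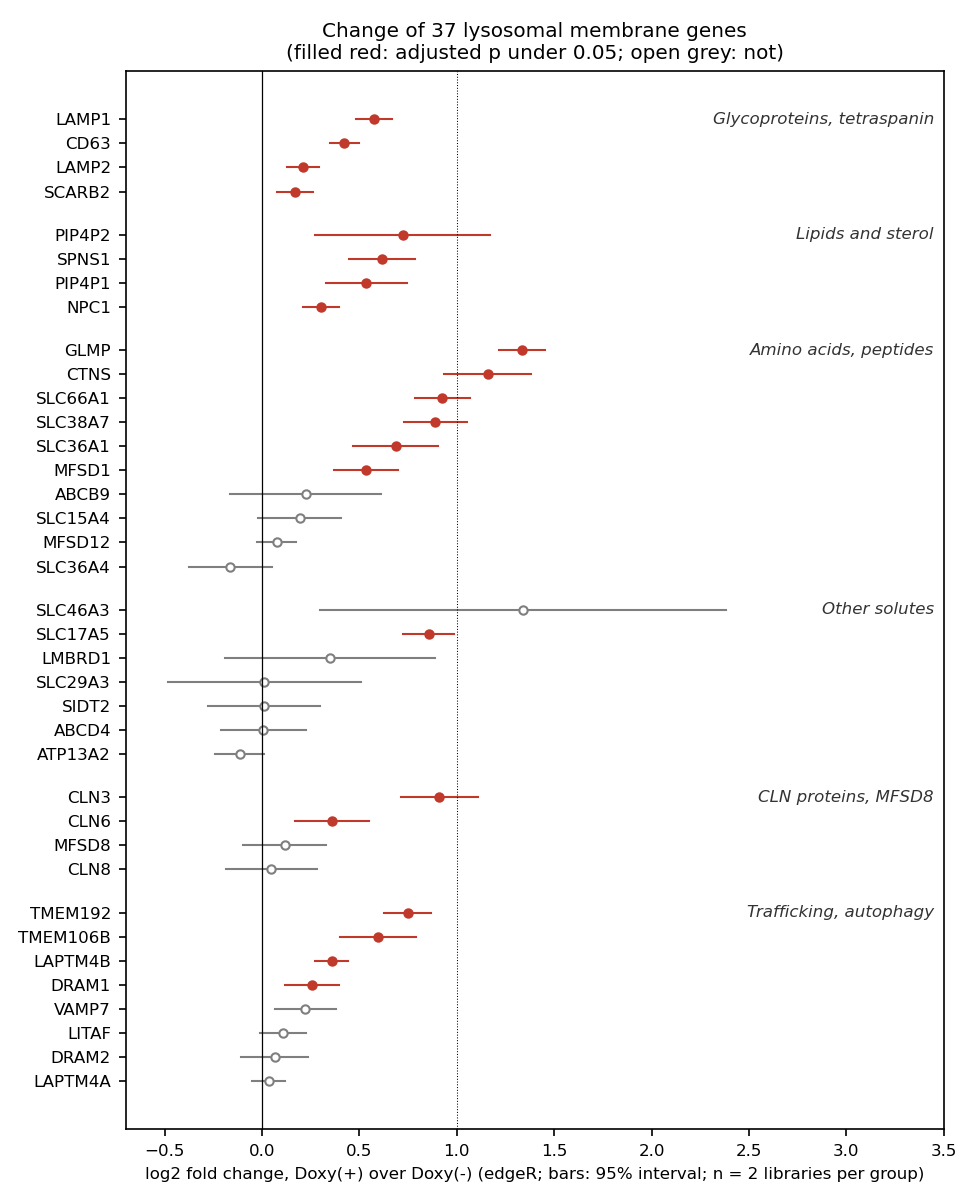
Log2 fold change, Doxy(+) over Doxy(-), of the 37 tested members, ordered by role, with 95% intervals from the edgeR quasi-likelihood fit (n = 2 libraries per group); the dotted line marks a log2 fold change of 1. The 21 filled red points, from SCARB2 at 0.17 to GLMP at 1.33, had an adjusted p under 0.05, and the widest interval is that of SLC46A3.

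On a per-length scale, the sum of the 39 members was 2939 and 2865 TPM (a length-corrected share scaled to 1000000) in Doxy(-) and 3819 and 3897 TPM in Doxy(+). CD63 alone made up 31.6% and 31.7% of this sum in Doxy(-) and 32.6% and 33.1% in Doxy(+). Without CD63 the sums were 2009 and 1957 TPM in Doxy(-) and 2575 and 2609 TPM in Doxy(+), so the groups stayed apart. CD63 had the highest level, at 919 ± 14.97 TPM in Doxy(-) and 1266 ± 31.2 TPM in Doxy(+) (SD, n = 2 each), followed in Doxy(-) by LAPTM4B at 309 ± 9.52, LAPTM4A at 222 ± 4.81 and LAMP2 at 215 ± 3.99 TPM. In Doxy(-) LAPTM4A and LAMP2 differed by less than the sum of their SDs, and in Doxy(+) LAMP2 reached 257 ± 2.94 TPM and LAPTM4A 226 ± 5.70 TPM. At the other end were SLC29A3 at 2.62 ± 0.0848 TPM and SLC46A3 at 0.36 ± 0.0342 TPM in Doxy(-). LAMP3, a LAMP protein of dendritic cells, received 3.10 and 2 reads in the Doxy(-) libraries against 7.96 and 2.15 in the Doxy(+) libraries, and LAPTM5, which is expressed in blood cells, had 2 and 0 in Doxy(-) and 0 and 1 in Doxy(+). A count of 0 allows up to 3 counts, or 0.204 to 0.233 CPM, and a difference in these genes was not detectable at this depth.

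The structural proteins of the membrane rose by small amounts, in all 4 tested members (median log2 fold change 0.32), where 9.76% of all genes tested rose. LAMP1, a heavily glycosylated protein of the lysosomal coat, had 132 and 129.6 CPM in Doxy(-) and 193 and 197 CPM in Doxy(+). The gap between the groups was many times that between replicates, with a log2 fold change of 0.58 (edgeR SE 0.0373, adjusted p 0.000403). CD63, a tetraspanin of late endosomes and exosomes, rose from 454 and 445 CPM to 594 and 611 CPM, a log2 fold change of 0.42 (edgeR SE 0.0312, adjusted p 0.000624). Of its counts, between 24.9% and 35.2% per library were placed on CD63-209, a transcript annotated as a target of nonsense-mediated decay. SCARB2, also known as LIMP-2, which carries glucocerebrosidase to the lysosome, had 145.1 and 145.6 CPM in Doxy(-) and 161 and 166 CPM in Doxy(+). The log2 fold change of 0.17 (edgeR SE 0.0382, adjusted p 0.0293) was the smallest that passed, and it did not pass without Doxy(-) 1 (adjusted p 0.0554), Doxy(+) 1 (0.123) or Doxy(+) 2 (0.203), nor in 4 other fits, with adjusted p-values of 0.028 to 0.412 over its alternatives.

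LAMP2, the partner of LAMP1 in the coat, had 331 and 345 CPM in Doxy(-) and 394 and 388 CPM in Doxy(+). This was a log2 fold change of 0.21 (edgeR SE 0.0343, 95% interval 0.13 to 0.29, adjusted p 0.00938), and the intervals of LAMP1 and LAMP2 did not overlap, although the difference between them was not itself tested. On the TPM scale LAMP2 was 2.98 and 3.12 times LAMP1 in Doxy(-) and 2.37 and 2.32 times LAMP1 in Doxy(+). Without Doxy(+) 1 or Doxy(+) 2 the adjusted p of LAMP2 was 0.0829 and 0.0593, and the log2 fold change 0.20 and 0.22.

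LAMP2 encodes proteins with the same luminal part and different membrane anchors, chosen by the last coding exon, and LAMP2A is the receptor of chaperone-mediated autophagy. LAMP2-201, the LAMP2A form, ends in the coding exon at chrX:120431326-120431462, LAMP2-202, the LAMP2B form, in that at chrX:120439157-120439293, and LAMP2-203, the LAMP2C form, in that at chrX:120428487-120428626 (GENCODE release 44 on hg38, minus strand). The reads placed on LAMP2-201 were 1571 and 1868 for Doxy(-) against 1708 and 1765 for Doxy(+), overlapping counts that are not scaled for depth. On the TPM scale it had 98.8 and 102.4 in Doxy(-) and 110.7 and 109.4 in Doxy(+), higher in Doxy(+) without overlap. Of the reads on coding transcripts it took 40.2% and 40.0% per Doxy(-) library, against 36.7% and 37.9% per Doxy(+) library. LAMP2-202 had the larger share, at 53.9% and 53.8% in Doxy(-) and 56.3% in each Doxy(+) library. LAMP2-203 stayed between 5.86% and 6.99%, and the groups overlapped. By TPM, which corrects for the greater length of LAMP2-202, the order was the other way, with means of 57.5% and 54.6% for LAMP2-201 and 34.7% and 37.1% for LAMP2-202 in Doxy(-) and Doxy(+). The lower share of LAMP2-201 and the higher share of LAMP2-202 in Doxy(+) were seen in both libraries and on both scales, but such shares rest on how the quantifier divided reads of the common exons, and no test was made. LAMP2-204, annotated as a target of nonsense-mediated decay, ends in the same coding exon as LAMP2-202 and was left out of these shares. It had 41.1 and 39.3 TPM in Doxy(-) and 49.4 and 61.7 TPM in Doxy(+).

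**Figure D3:**
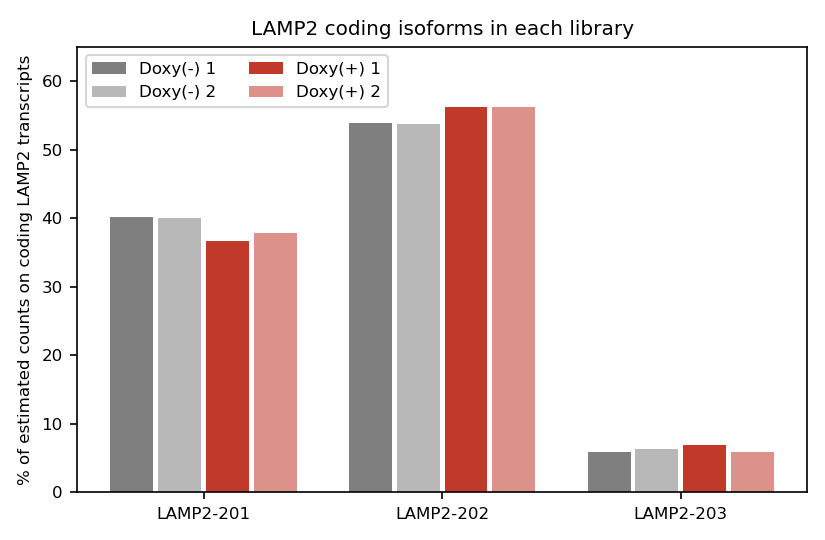
Share of the estimated counts on coding LAMP2 transcripts that was placed on each isoform, in percent, with 1 bar per library (grey Doxy(-), red Doxy(+)). LAMP2-202 holds 53.8% to 56.3% and LAMP2-201 36.7% to 40.2%, and the axis starts at 0.

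The 4 members that handle lipid and sterol all rose (median log2 fold change 0.58), against 9.76% of all genes tested. SPNS1, which exports lysophospholipids, had 35.4 and 32.5 CPM in Doxy(-) and 50.3 and 53.7 CPM in Doxy(+), a log2 fold change of 0.62 (edgeR SE 0.0699, adjusted p 0.00276). NPC1, the membrane protein that exports cholesterol and is mutated in Niemann-Pick disease type C, had 237 and 225 CPM in Doxy(-) and 284 and 286 CPM in Doxy(+). At 0.30 (edgeR SE 0.0381, adjusted p 0.00386), its log2 fold change was the smallest of the 4. PIP4P1 and PIP4P2 encode related phosphatases that remove the 4-phosphate of phosphatidylinositol-4,5-bisphosphate. PIP4P1 had 42.2 and 36.5 CPM in Doxy(-) and 54.7 and 59.3 CPM in Doxy(+) (log2 fold change 0.54, edgeR SE 0.0859, adjusted p 0.00893). PIP4P2 had 3.80 and 4.56 CPM in Doxy(-) and 6.99 and 6.85 CPM in Doxy(+) (log2 fold change 0.72, edgeR SE 0.185, adjusted p 0.0428). Its coding transcript PIP4P2-201 received 13.9 and 28.7 reads in Doxy(-) and 29.4 and 29.6 in Doxy(+). The coding PIP4P2-204 received 0 and 23.8 in Doxy(-) and 6.69 and 5.51 in Doxy(+). The other PIP4P2 reads were placed on transcripts annotated as targets of nonsense-mediated decay, so a rise of the coding transcripts was not shown. The interval of PIP4P2, 0.27 to 1.17, contained that of PIP4P1, and on the TPM scale PIP4P1 was 6.63 and 6.40 times PIP4P2 in Doxy(-) and 6.25 and 5.25 times in Doxy(+). PIP4P2 no longer passed without Doxy(-) 1 (0.60, adjusted p 0.116), Doxy(+) 1 (0.71, 0.169) or Doxy(+) 2 (0.74, 0.142), nor with DESeq2, with length-scaled counts (counts rebuilt from TPM) or with the library number as a replicate block, with adjusted p-values of 0.0333 to 0.263 over its alternatives.

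The largest increases that passed were in the group of amino acid and peptide transport. Here 6 of 10 rose (median log2 fold change 0.61), against 9.76% of all genes tested. This group holds transporters and GLMP, the partner of a transporter. GLMP (chr1:156290089-156295689, minus strand), a glycoprotein that binds the transporter MFSD1 and protects it from degradation, had 53.8 and 51.8 CPM in Doxy(-) and 134 and 132 CPM in Doxy(+). This 2.52-fold difference (log2 fold change 1.33, edgeR SE 0.0482, adjusted p 7.41e-05) had the smallest p of all members. MFSD1 itself, an exporter of dipeptides, had 103 and 91.7 CPM in Doxy(-) and 137 and 145 CPM in Doxy(+), a log2 fold change of 0.53 (edgeR SE 0.0668, adjusted p 0.00386). Between 58.6% and 71.9% of the MFSD1 counts per library were placed on MFSD1-209, a transcript annotated as a target of nonsense-mediated decay.

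CTNS (chr17:3636459-3663103, plus strand) encodes cystinosin, the cystine exporter that is lost in cystinosis. It had 20.6 and 24.5 CPM in Doxy(-) and 49.6 and 51.3 CPM in Doxy(+), a 2.23-fold difference (log2 fold change 1.16, edgeR SE 0.0918, adjusted p 0.000779). Both Doxy(+) libraries lay well above both Doxy(-) libraries, which differed more from each other than those of GLMP did. With length-scaled counts and with limma on log2(TPM + 1) or log2(TPM + 0.1) the log2 fold change was 0.89, 0.89 and 0.93, below the limit of 1. CTNS-201 took 74.0% and 62.1% of the counts of the gene in Doxy(-) libraries, and 83.7% and 83.5% in Doxy(+) libraries. Exons of CTNS overlap those of TAX1BP3 and P2RX5-TAX1BP3, and those of GLMP overlap TMEM79, in each case on the other strand, and whether the counting used the strand is not stated.

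The other 3 amino acid transporters that rose had log2 fold changes from 0.69 to 0.93. SLC66A1, which exports cationic amino acids, had 35.9 and 34.4 CPM in Doxy(-) and 67.8 and 65.8 CPM in Doxy(+) (0.93, edgeR SE 0.0573, adjusted p 0.000347). SLC38A7, a glutamine exporter, had 30.5 and 32.9 CPM in Doxy(-) and 60.4 and 57.2 CPM in Doxy(+) (0.89, edgeR SE 0.0661, adjusted p 0.000644). In both genes the groups were far apart relative to the gap between replicates. SLC36A1, a proton-coupled amino acid transporter, rose from 15.5 and 14.6 CPM to 24.5 and 24.0 CPM (0.69, edgeR SE 0.0894, adjusted p 0.00444), and its adjusted p was 0.066 and 0.0686 with limma on log2(TPM + 1) and log2(TPM + 0.1). Its relative SLC36A4 had 21.3 and 20.4 CPM in Doxy(-) and 18.4 and 18.8 CPM in Doxy(+), a log2 fold change of -0.16 that did not pass (95% interval -0.37 to 0.05, edgeR adjusted p 0.257). Also below the threshold were SLC15A4, which carries histidine and peptides (0.19), ABCB9, a peptide pump (0.22), and MFSD12, required for cysteine import (0.08), with edgeR adjusted p-values of 0.181 to 0.387. SLC15A4 did pass without Doxy(-) 1, at 0.31 with an adjusted p of 0.034, and had a log2 fold change of 0.08 without Doxy(-) 2.

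Among transporters of other solutes, 1 of 7 rose (14.3%, against 9.76% of all genes tested), and the median log2 fold change was 0.01. SLC17A5, or sialin, the exporter of sialic acid that is defective in Salla disease, had 38.7 and 37.8 CPM in Doxy(-) and 69.4 and 69.2 CPM in Doxy(+). The replicates were nearly equal, and the log2 fold change was 0.86 (edgeR SE 0.0536, adjusted p 0.000351). SLC46A3, a carrier of small molecules released from degraded antibody-drug conjugates, received 7 and 9 reads in the Doxy(-) libraries and 15 and 24 in the Doxy(+) libraries. The log2 fold change of 1.34 was as large as that of GLMP but came with an interval of 0.30 to 2.38 and an edgeR adjusted p of 0.0814, and it was 0.996 without Doxy(+) 2.

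The cobalamin exporter ABCD4 and its partner LMBRD1, which together release vitamin B12 from the lysosome, did not pass. ABCD4 had 43.1 and 39.2 CPM in Doxy(-) and 44.3 and 38.4 CPM in Doxy(+), and its log2 fold change of 0.01 (95% interval -0.21 to 0.23) changed sign in 6 of 13 alternative fits. Most of its counts were placed on transcripts annotated as targets of nonsense-mediated decay or as retaining an intron. The coding transcript ABCD4-201 received only 16.9 and 10.8 reads in Doxy(-) and 10.4 and 16.5 in Doxy(+). LMBRD1 had 20.95 and 13.95 CPM in Doxy(-) and 19.0 and 25.3 CPM in Doxy(+), and the groups overlapped (log2 fold change 0.35, edgeR SE 0.222, adjusted p 0.329). That value was 0.66 without Doxy(-) 1, 0.54 without Doxy(+) 1, 0.12 without Doxy(+) 2 and 0.08 without Doxy(-) 2, and none of these passed. Between 90.0% and 100% of its counts per library were placed on LMBRD1-202, which is annotated as a target of nonsense-mediated decay and is 1 of only 2 LMBRD1 transcripts in the tables. ATP13A2, a polyamine exporter linked to a form of parkinsonism, had 82.0 and 84.9 CPM in Doxy(-) and 75.6 and 78.6 CPM in Doxy(+), with a log2 fold change of -0.12 (95% interval -0.24 to 0.01, edgeR adjusted p 0.18). The nucleoside transporter SLC29A3 and SIDT2, which takes up RNA and DNA, each had a log2 fold change of 0.01, with edgeR adjusted p-values of 0.975 and 0.96. Their intervals reached from -0.48 to 0.51 and from -0.28 to 0.30, so changes of that size were not detectable at this depth.

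CLN3, CLN6, CLN8 and MFSD8 are among the genes mutated in neuronal ceroid lipofuscinoses, a group of neurodegenerative storage diseases. Of these 4, 2 rose (median log2 fold change 0.24), against 9.76% of all genes tested. CLN3, the protein of Batten disease, had 32.4 and 29.7 CPM in Doxy(-) and 55.1 and 61.5 CPM in Doxy(+). The log2 fold change was 0.91 (edgeR SE 0.0807, adjusted p 0.00113), and its exons overlap those of APOBR on the other strand. CLN6 and CLN8 reside in the endoplasmic reticulum, where they act together in the export of lysosomal enzymes. CLN6 had 36.2 and 33.2 CPM in Doxy(-) and 42.4 and 46.6 CPM in Doxy(+), a log2 fold change of 0.36 (edgeR SE 0.0775, adjusted p 0.0247). CLN8 had 19.0 and 17.3 CPM in Doxy(-) and 18.7 and 18.8 CPM in Doxy(+), so the groups overlapped (0.05, 95% interval -0.18 to 0.28, edgeR adjusted p 0.77). CLN6 lost its call without Doxy(-) 2 (0.30, adjusted p 0.057) and without Doxy(+) 2 (0.29, 0.14), and in 4 other fits, over a range of 0.0139 to 0.14. MFSD8, also known as CLN7, an endolysosomal chloride channel, had a log2 fold change of 0.12 (edgeR adjusted p 0.41).

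Among members with roles in trafficking and autophagy, 4 of 8 tested rose (median log2 fold change 0.24), against 9.76% of all genes tested. TMEM192, a lysosomal membrane protein widely used as a handle to purify lysosomes, had 61.1 and 64.0 CPM in Doxy(-) and 105 CPM in each Doxy(+) library (log2 fold change 0.75, edgeR SE 0.0497, adjusted p 0.000439). TMEM106B, a regulator of lysosome size and movement, rose from 39.6 and 45.9 CPM to 64.9 and 64.5 CPM (0.59, edgeR SE 0.0796, adjusted p 0.00483). The replicates of Doxy(+) were close in both, and neither gene's groups overlapped. LITAF, an adaptor of late endosomes, had a log2 fold change of 0.11 (edgeR adjusted p 0.178). VAMP7, a SNARE of lysosome fusion, had 66.2 and 67.8 CPM in Doxy(-) and 74.3 and 82.1 CPM in Doxy(+), and missed the threshold (0.22, edgeR SE 0.0645, adjusted p 0.0629). With the replicate block it passed, at an adjusted p of 0.046, and over all alternatives its adjusted p ran from 0.046 to 0.31 (without Doxy(+) 2). VAMP7 lies in a region shared by both sex chromosomes, so its reads can be divided between identical copies. No unmatched identifier was found to copy the length and counts of a VAMP7 transcript. ABCD4 and NPC1 each had 1 such copy, which the main fit left out.

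LAPTM4B, which binds ceramide and supports amino acid uptake into lysosomes, had 525 and 497 CPM in Doxy(-) and 652 and 658 CPM in Doxy(+), a log2 fold change of 0.36 (edgeR SE 0.0352, 95% interval 0.27 to 0.44, adjusted p 0.00162). LAPTM4A had 212 and 217 CPM in Doxy(-) and 219.6 and 220 CPM in Doxy(+), a log2 fold change of 0.03 (95% interval -0.05 to 0.12, edgeR adjusted p 0.535). The intervals did not overlap, and on the TPM scale LAPTM4B was 1.45 and 1.34 times LAPTM4A in Doxy(-) and 1.83 and 1.77 times in Doxy(+), but the difference between the changes was not tested. LAPTM4B has 2 annotated pseudogenes, LAPTM4BP1 and LAPTM4BP2, that can take some of its reads. DRAM1, a p53 target that promotes autophagy, had 75.5 and 69.8 CPM in Doxy(-) and 85.7 and 87.9 CPM in Doxy(+) (0.26, edgeR SE 0.0576, adjusted p 0.0283). DRAM2 had 28.9 and 31.0 CPM in Doxy(-) and 31.3 and 31.4 CPM in Doxy(+) (0.07, 95% interval -0.11 to 0.24, edgeR adjusted p 0.576), and the intervals of this pair overlapped. The call of DRAM1 was lost without Doxy(-) 2 (0.20, adjusted p 0.0657), Doxy(+) 1 (0.27, 0.116) or Doxy(+) 2 (0.24, 0.145) and in 4 other fits, over a range of 0.0144 to 0.215.

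**Figure D4:**
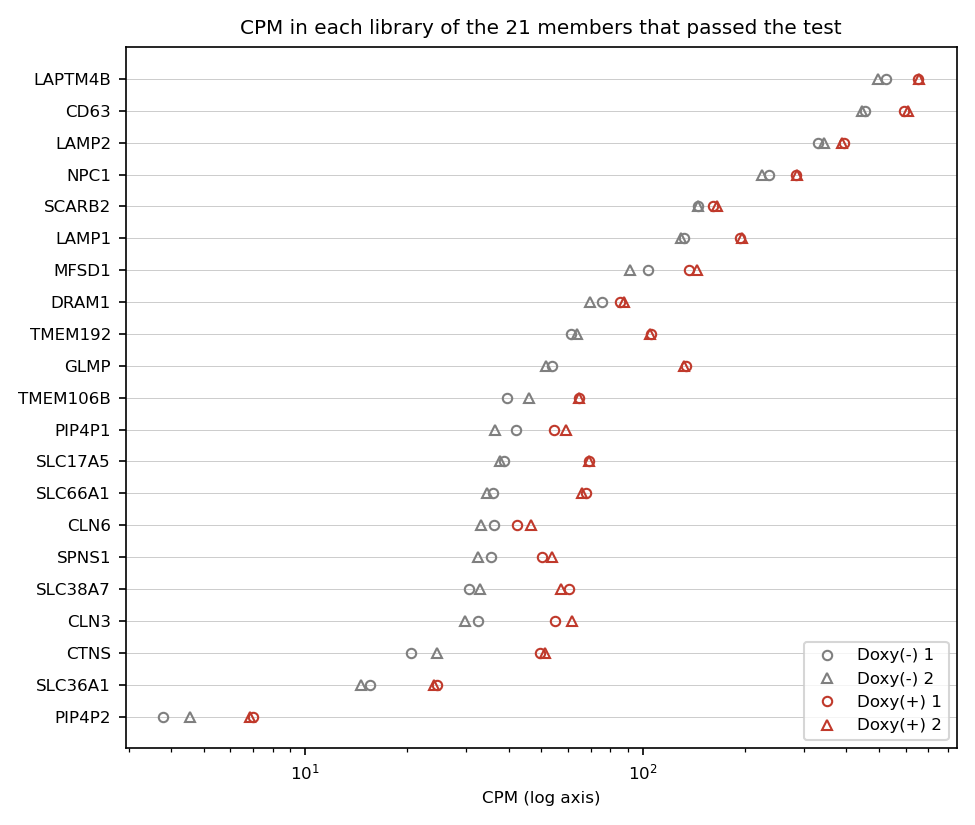
CPM in each library of the 21 members that rose, on a logarithmic axis, ordered by their mean in Doxy(-) (grey Doxy(-), red Doxy(+); circles number 1, triangles number 2). In every row both red symbols lie to the right of both grey ones, from PIP4P2 at 3.80 to 6.99 CPM up to LAPTM4B at 497 to 658 CPM.

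Finally, the members were set beside other lysosomal genes and beside solute carriers of other organelles, by counts and medians only. Of all 13569 genes tested, 9.76% rose and 9.53% fell. The share that rose was 82.4% for V-ATPase subunits, 62.8% for soluble hydrolases and activators and 35.7% for other lysosomal membrane genes. It was 19.05% for the SLC25A genes and 11.8% for the SLC35A to SLC35E genes, the last near the share over all genes. Of 17 V-ATPase subunits, the pump that acidifies the lysosome, 14 rose (median log2 fold change 0.49), with the smallest p-values for ATP6V1C1 (1.11) and ATP6V1F (1.001). Of 43 tested soluble lysosomal hydrolases and activators, 27 rose (median 0.46), with the smallest p-value for CTSA (1.04), and CTSZ was lower (-0.15). Of 28 other lysosomal membrane genes, 10 rose and 3 were lower (median 0.13), with the smallest p-values for GPNMB (2.44) and SLC11A2 (1.17). In this last list ABCA3, a lipid pump, changed from 33.3 and 32.3 CPM to 20.7 and 20.9 CPM (-0.66), and TMEM165 (-0.23) and the cation channel TPCN1 (-0.19) were the other two that fell. These 3 and CTSZ were named after their values were seen. Of 42 tested genes whose symbol begins with SLC25A, which are mitochondrial carriers apart from the pseudogenes SLC25A1P5 and SLC25A51P4 and the antisense gene SLC25A21-AS1, 8 rose and 1 fell (median 0.07), with the smallest p-values for SLC25A36 (1.12) and SLC25A37 (-0.55), and of 17 tested genes of the SLC35A to SLC35E families, which include the nucleotide-sugar carriers, 2 rose, SLC35B2 (0.38) and SLC35D1 (0.47) (median 0.07).

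**Figure D5:**
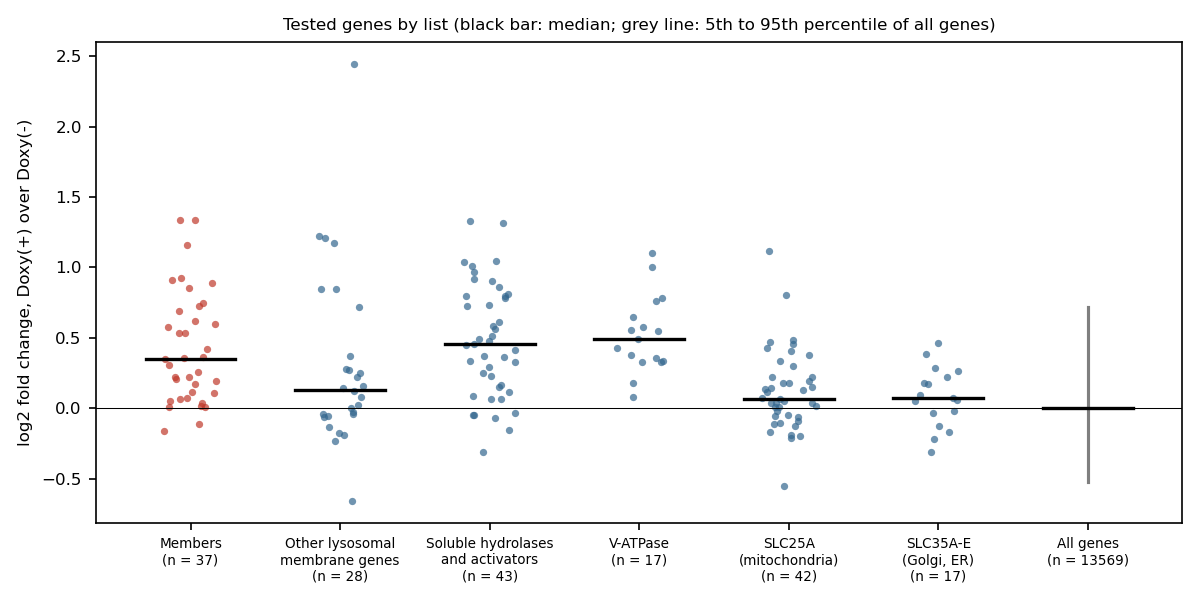
Log2 fold change, Doxy(+) over Doxy(-), of each tested gene in the members (red) and in 5 other lists (blue), with the median as a black bar and the 5th to 95th percentile of all 13569 genes as a grey line. The medians are 0.35 for the members, 0.13 for other lysosomal membrane genes, 0.46 for hydrolases, 0.49 for V-ATPase subunits and 0.07 for each family of other carriers.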

How the data were processed

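Stranded, polyadenylated RNA libraries of HK-2 cells, 2 Doxy(-) and 2 Doxy(+), were sequenced as single-end reads. The submitters' processing notes name Trim Galore 0.6.6, cutadapt 2.5, STAR 2.7.9a and hg38, and the study's methods add RSEM and DESeq2, but the deposited tables have the columns that kallisto writes, over 180253 Ensembl transcripts. Estimated counts were deposited without normalization and give the read number of each transcript after ambiguous reads were split. TPM values were also deposited, length-corrected by the authors' quantifier and adding up to 1000000 per library. The quantifier's version, the annotation release and the use of strand are not given in the sources used here.

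Genes were taken from GENCODE release 44 (hg38) by transcript identifier. Of the identifiers, 150691 (83.6%) matched, and the unmatched ones, with 9.66% to 9.89% of the counts of a library, stayed out of library sizes and tests. Counts were summed per gene, rounded and put through edgeR 4.0.16 under R 4.3.3 (glmQLFit and glmQLFTest, two-sided, TMM, filterByExpr, group as the only term), with Benjamini-Hochberg adjustment over all 13569 genes tested. A gene rose or fell at an adjusted p under 0.05. Standard errors were derived from the log2 fold change and its F statistic. TPM, summed per gene, was used to compare levels between genes and in some alternatives. Motifs were counted in RefSeq promoter windows, with no test.

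The labels do not say whether libraries of a group came from separate cultures, so p-values measure the spread between these libraries only. A chi-square over genes, 3.31 per degree of freedom in Doxy(-) and 2.48 in Doxy(+), exceeded counting noise between libraries of a group, so no pair was treated as 1 library deposited again; this does not show that they were separate cultures. The common biological coefficient of variation was 6.53%, and floors cover counting error only.

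The members, the role groups and the comparison lists were chosen with earlier results of these data known, so their counts are not independent evidence. Named with library values were members past both limits, the 10 with the smallest p and all members of related or partner pairs, with others added where their role calls for it, and from each comparison list the 2 genes with the smallest p, of which 1 is not reported here. Of 5 marker lists, those of proximal tubule, cultured renal epithelium, leukocyte and endothelium are given with the results, and of 3 fibroblast markers COL1A1 and DCN were present, COL3A1 was at 0, and the summed level was 21.5 to 25.6 CPM in Doxy(-) and 17.7 to 19.3 CPM in Doxy(+). Exons of 10 members overlap another gene on the other strand (ABCB9, CLN3, CTNS, DRAM2, GLMP, LMBRD1, MFSD12, MFSD8, NPC1 and PIP4P1), and MFSD1 and LAPTM4B have pseudogenes, so reads of these genes may be misplaced. Alternatives tried were RLE scaling, omission of the low-count filter, a filter at a mean CPM of 1, DESeq2 1.42.0, limma 3.58.1 on log2(TPM + 1) and log2(TPM + 0.1), unmatched copies of matched transcripts added, length-scaled counts, the replicate block, each library left out and an adjusted p under 0.01.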

Additional observations from a re-analysis of the deposited data

How the results depend on the processing

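Of the 21 members that rose, 15 passed in each of 13 alternative fits, and 32 of the 37 tested kept their sign in all of them. RLE scaling, omission of the low-count filter, a filter at a mean CPM of 1 and added copies each called 21 members, and DESeq2, length-scaled counts and both limma settings called 17, as did an adjusted p under 0.01. Leaving out a library gave 16 to 20, with a median log2 fold change of 0.27 to 0.39. SCARB2, CLN6, DRAM1, PIP4P2, SLC36A1 and LAMP2 lost their call in at least 1 fit, and the cause was not tested. In the fit with the replicate block 21 members rose, of which 20 were the same, with PIP4P2 lost (adjusted p 0.0546) and VAMP7 gained (0.046). The block left 1282 higher and 1261 lower genes in all. The numbers are not known to pair the libraries, and same-numbered libraries did not deviate together (correlation -0.0147 over genes).

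Past both limits, limma on log2(TPM + 1) or log2(TPM + 0.1) and length-scaled counts each left 1 member, GLMP. Over all genes, DESeq2 gave 772 higher and 777 lower, limma 642 and 334 with a pseudocount of 1 and 624 and 324 with 0.1, length-scaled counts 677 and 583, and an adjusted p under 0.01 gave 621 and 554. Leaving out a library gave 647 to 1233 higher and 565 to 1308 lower, with the lowest of both without Doxy(+) 1 and the next, 686 and 642, without Doxy(+) 2. In each of these fits the lone library of a group is assumed to vary like the other group.

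Sign changes occurred only in members that had not passed. ABCD4 was -0.0021 without a filter, -0.0014 in both limma settings, -0.039 with length-scaled counts and -0.10 to 0.11 when a library was left out. SIDT2 was -0.16 and -0.18 with limma, -0.21 with length-scaled counts and -0.10 to 0.11 with a library left out. LAPTM4A was -0.0099 with length-scaled counts, CLN8 -0.021 to 0.11 and SLC29A3 -0.056 to 0.076 with a library left out. By TPM instead of counts, LAMP2-201 held 57.5% in Doxy(-) and 54.6% in Doxy(+), LAMP2-202 34.7% and 37.1% and LAMP2-203 7.7% and 8.4%, since a longer transcript yields more reads. With only the bases before the start, 5 members held CACGTG and 6 either motif.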
